A study of Mus musculus with 6 samples.

Results

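Cycling T cells were 113 of 2887 T cells kept from 4803 cell barcodes of mouse Peyer's patches, where lymphoid follicles lie in the wall of the gut. They were chosen by their own counts. A barcode was kept if it had at least 500 detected genes, at most 10% of its unique molecular identifiers (UMIs, 1 per captured transcript) in mitochondrial genes, at least 1 UMI over Cd3e, Cd3d and Cd3g, and 0 UMIs of Epcam, Krt8 and Cd79a. A kept barcode was a member if at least 2 of 9 genes of proliferating cells, called the rule genes below, had a UMI: Mki67, Top2a, Birc5, Cdk1, Ccnb2, Cenpf, Ube2c, Rrm2 and Pclaf. "Cycling" is the name of the cells selected on those genes, and how far single cells bear it out is given first.

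The cells were OT-II CD4+ T cells, whose receptor recognises ovalbumin, from OTII+/+RAG-/- donors. The donors were either wild type (WT) or carried 1 copy of a Tgfbr1 allele, M318R, in the type I receptor for TGF-β (TgfbrIWT/mut, called mutant below). CD4+ donor cells went into CD45.1 WT hosts that drank 1.5% ovalbumin for 7 days, and on day 8 CD45.2+CD45.1-CD4+CD8-TCRβ+ cells were sorted from their Peyer's patches. There were 2 WT and 2 mutant single-cell libraries, and because the labels do not say whether they came from separate animals, p-values between genotypes measure only the spread between these libraries. The WT matrices also held counts of 3 antibody tags, and those of the mutant held none, so a preparation that differed and the genotype cannot be told apart.

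A T cell that has met its antigen leaves the resting state, copies its DNA in S phase, and divides in mitosis after the G2 gap. Many genes of this programme are transcribed in waves. The factor E2F drives licensing and nucleotide-supply genes around S phase, and MuvB complexes, working through the CHR element, drive mitotic genes in G2 and M. In Peyer's patches, T follicular helper (Tfh) cells support the division of germinal-centre B cells, and many T cells there are long past their own expansion.

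The rule genes cover both sides of the programme. Rrm2 is a subunit of ribonucleotide reductase and Pclaf binds the replication clamp PCNA. Cdk1 and its partner cyclin B2 (Ccnb2) drive entry into mitosis, Top2a untangles chromosomes, Birc5 (survivin) and Cenpf act at centromeres and kinetochores, Ube2c is the ubiquitin-conjugating enzyme of the anaphase-promoting complex, and Mki67 coats mitotic chromosomes. Their RefSeq promoters (GRCm38.p6, 250 bases before to 50 after the start) were searched on both strands for the CHR (TTTGAA), the CCAAT box (CCAAT) and an E2F motif (TTTGGCG or TTTCGCG). CHR letters were in 6 of the 9 promoters and CCAAT letters in 8 of 9, against 17.9% and 37.4% of all 32851 promoters of the same length. The E2F letters were in 1 of 9, against 2.37% of all. The promoters of Ccnb2 (chr9:70421505-70421804, minus strand) and Cdk1 (chr10:69352863-69353162, minus strand) show CHR and CCAAT letters in mitotic genes, and that of Rrm2 (chr12:24708004-24708303, plus strand) stands for the S-phase side. They are printed 5′ to 3′ with every motif match in capitals.

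Ccnb2: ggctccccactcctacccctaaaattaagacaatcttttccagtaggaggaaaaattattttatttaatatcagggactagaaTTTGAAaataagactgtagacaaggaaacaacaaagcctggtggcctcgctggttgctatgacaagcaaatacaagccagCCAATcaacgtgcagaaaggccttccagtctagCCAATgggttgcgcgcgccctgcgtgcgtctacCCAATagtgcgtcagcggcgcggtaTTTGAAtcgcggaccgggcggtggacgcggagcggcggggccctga
Cdk1: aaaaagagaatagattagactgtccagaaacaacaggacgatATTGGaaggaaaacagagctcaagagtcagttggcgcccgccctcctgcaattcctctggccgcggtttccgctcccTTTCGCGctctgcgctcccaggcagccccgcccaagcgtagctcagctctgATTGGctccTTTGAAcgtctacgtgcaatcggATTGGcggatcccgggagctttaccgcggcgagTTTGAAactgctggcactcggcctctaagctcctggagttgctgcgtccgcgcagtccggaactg
Rrm2: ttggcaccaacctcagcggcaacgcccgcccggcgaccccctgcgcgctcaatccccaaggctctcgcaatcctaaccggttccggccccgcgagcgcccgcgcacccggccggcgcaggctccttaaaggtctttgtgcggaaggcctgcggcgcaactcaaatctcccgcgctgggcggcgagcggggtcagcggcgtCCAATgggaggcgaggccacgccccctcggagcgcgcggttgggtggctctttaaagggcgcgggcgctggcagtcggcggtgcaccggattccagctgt

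The Ccnb2 promoter held 2 CHR and 3 CCAAT matches. That of Cdk1 held 2 CHR, 3 CCAAT and 1 E2F match, and that of Rrm2 held 1 CCAAT match only. Among genes outside the rule, the mitotic spindle list had CHR letters in 62% and E2F letters in 6% of 50 promoters, while the DNA replication list had them in 20% and 37.5% of 40 promoters. CCAAT letters were common in both, in 76% and 60%. The nucleotide-supply list, named with E2F above, had E2F letters in 0 and CHR letters in 5.26% of 19 promoters. In the histone and chromatin list they were in 18.75% and 37.5% of 16 promoters. A match is a run of letters, not a site shown to be bound.

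Mki67 had a UMI in 67 of the 113 members and in 2.67% of the other 2774 kept cells. Its level, in CPM (its UMIs scaled to 1000000 UMIs of the summed members), was 170 and 282 in the WT libraries (WT 1 and WT 2, in that order throughout) and 428 and 158 in the mutant ones (mutant 1 and mutant 2), while in the other cells it was between 2.50 and 8.12. Top2a was in 72 members at 113, 195, 357 and 194 CPM in the same order. It was also the rule gene most seen elsewhere, with a UMI in 10.1% of other cells and 13.1 to 20.3 CPM there. Both genes chose the members, so these gaps are a description.

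Of the rule genes, Birc5 and Ccnb2 were the least seen in other cells. All 9 genes chose the members, so the gaps below are a description too. Birc5 had a UMI in 36 members and in 1 of 2774 other cells, and Ccnb2 in 31 members and 0.108% of other cells. Ccnb2 stood at 101 and 156 CPM in WT and at 147 and 61.4 in mutant members. Ube2c was in 37 members (0.288% of others), Cdk1 in 28 (0.505%) and Cenpf in 51 (1.05%). On the S-phase side, Pclaf was in 66 members (1.87% of others) at 113, 162, 289 and 133 CPM, and Rrm2 in 37 (1.51%). All 9 genes were higher in mutant 1 than in WT 1, while in mutant 2 Birc5, Ccnb2, Cenpf, Mki67 and Ube2c were lower than in both WT libraries.

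At the threshold, 58 members had exactly 2 rule genes, 14 had 3 and 41 had 4 or more. Just outside it were 502 cells with 1 rule gene, of which 279 had Top2a alone and 74 Mki67 alone, and 2272 cells had none. Top2a with Pclaf was the commonest pair among members with exactly 2, in 13 cells, followed by Mki67 with Cenpf in 9. The 2-gene members were 17 and 10 in WT and 18 and 13 in mutant libraries, and those with 4 or more were 7, 12, 17 and 5.

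The name was then set against 233 cell-cycle genes outside the rule, in 7 lists (replication, nucleotide supply, histones and chromatin, cyclins and kinases, spindle, condensin and cohesin, DNA repair). These genes summed to a median of 93.6 UMIs per 10000 in cells with 0 rule genes, and 92.4 in cells with 1. Members with 2 rule genes had a median of 98.8, close to the cells outside the rule. The medians were 170 at 3 rule genes, 165 at 4 to 5, 362 at 6 to 7 and 417 at 8 to 9. The 99th percentile of the cells with 0 rule genes was 167 per 10000, and above it lay 11 of the 58 members with 2 genes, 7 of 14 with 3, 6 of 12 with 4 to 5, 15 of 15 with 6 to 7 and 14 of 14 with 8 to 9. The remaining 2-gene members, most of the largest band, were within the range of cells without a rule gene.

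**Figure D1:**
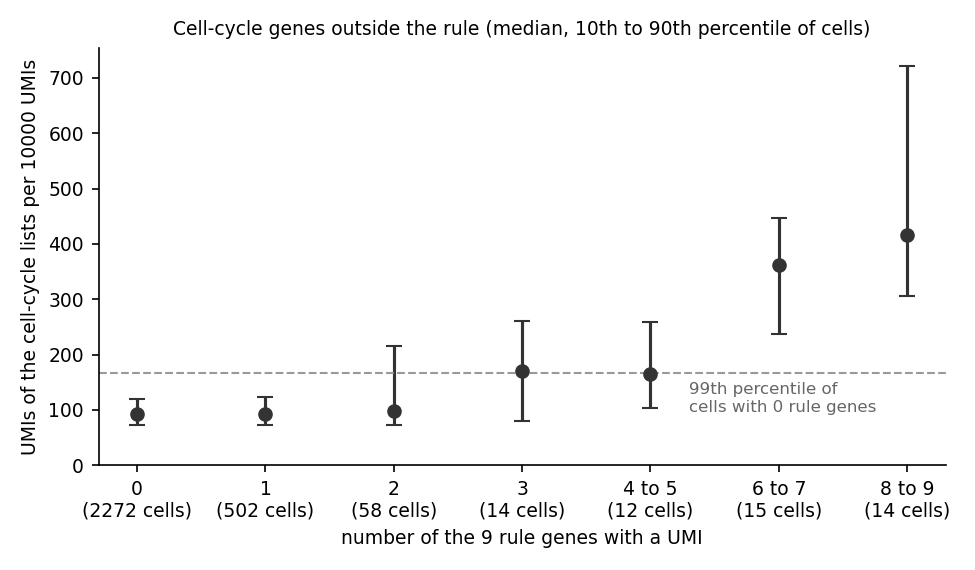
UMIs of the 7 cell-cycle lists per 10000 UMIs of a cell (y axis) for cells grouped by how many of the 9 rule genes had a UMI (x axis); points are medians over cells, bars run from the 10th to the 90th percentile, and the dashed line is the 99th percentile of cells with 0 rule genes. The medians at 0, 1 and 2 rule genes lie between 92.4 and 98.8, and those at 6 to 7 and 8 to 9 rise to 362 and 417.

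Single genes differed in where they rose along that scale. Mcm6, a subunit of the replicative helicase, went from 38.5 CPM in cells with 0 rule genes to 146 at 2 and 207 at 3, and was 201 at 8 to 9. Tyms, which makes thymidylate, rose from 14.4 to 45.6 at 2 and 296 at 8 to 9. Of the mitotic genes, Ccnb1 and Cdc20 were low below 6 rule genes: Ccnb1 was at 2.61 CPM with 2 rule genes and 98.8 with 6 to 7, and Cdc20, an activator of the anaphase-promoting complex, at 2.61 and 184. Other mitotic genes were up earlier. Cenpe, the kinesin of the kinetochore, was at 2.07 CPM with 0 rule genes, 47.5 with 3 and 108 with 4 to 5, and Cenpa, the centromeric histone H3, was at 24.1 with 0 and 186 with 4 to 5. Hmgb2, a chromatin protein of dividing cells, went from 280 with 0 rule genes to 409 with 2 and 3792 with 8 to 9. These levels are descriptions, since such genes move with those of the rule.

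Set out cell by cell, the members fell into arms. The limits used are the 99th percentiles of the other kept cells, 33.1 replication-list and 29.3 spindle-list UMIs per 10000. Above the replication limit alone were 13 members, above the spindle limit alone 23, above both 14 and above neither 63. Of the 58 members with 2 rule genes, 49 passed neither limit, 7 the replication limit alone, 0 the spindle limit alone and 2 both. Of the 41 with 4 or more, 21 passed the spindle limit alone, 11 both and 7 neither. The spindle arm held 5 and 7 cells of the WT and 10 and 1 of the mutant libraries. Both genotypes had cells in every arm.

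**Figure D2:**
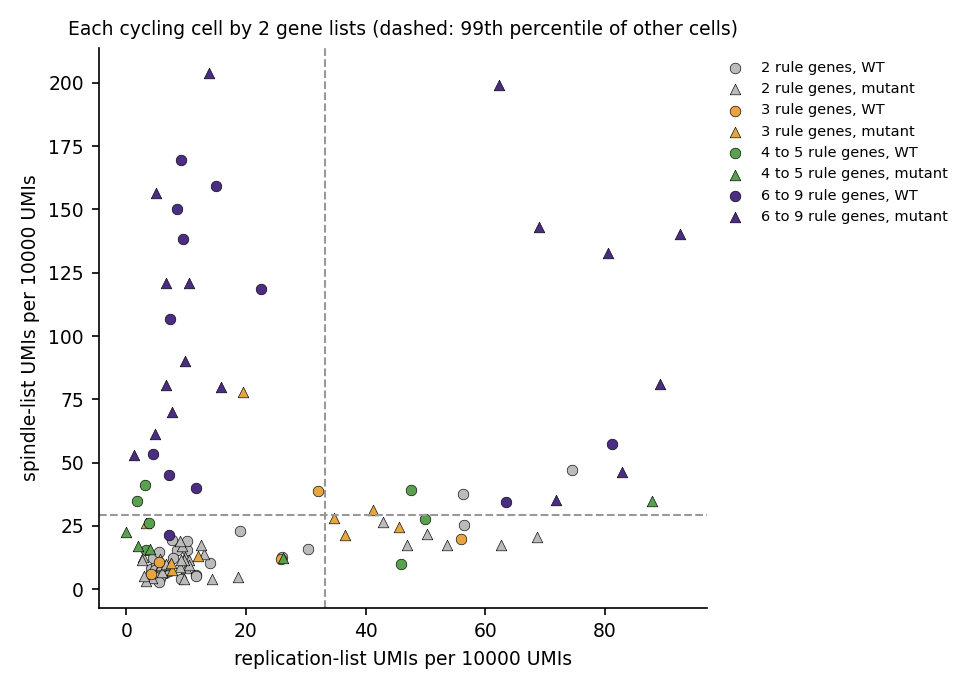
Each of the 113 cycling cells by its UMIs of the replication list (x axis) and of the spindle list (y axis), each per 10000 UMIs of the cell; colour gives the number of rule genes, circles are WT and triangles mutant, and dashed lines are the 99th percentiles of other kept cells (33.1 and 29.3). The members with 2 rule genes crowd the lower left corner, where 49 of 58 pass neither limit, and 21 of the 23 cells above the spindle limit alone have 4 or more rule genes.

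By the rule genes themselves, 76 members (67.3%) had both an S-side gene (Rrm2 or Pclaf) and a gene of the G2/M side, 35 (31.0%) had G2/M-side genes alone and 2 (1.77%) S-side genes alone. The G2/M-only share was 34.6% in WT 1 and 28.0% in WT 2, with 26.2% and 40.0% for mutant cells. The genotypes overlapped, with means of 31.3% and 33.1%. These shares are a description, and they follow in part from the rule, since 2 of its 9 genes are of the S side. By genes outside the rule, 13 members passed the replication limit alone.

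Members were the deeper cells of each library. Their median UMI count was 16225.5 and 11441 in WT and 11123.5 and 14251 in mutant libraries, against 8769.5, 8496, 8419 and 8668 in the other kept cells. With kept cells ranked by UMIs and cut into 3 equal bins, 1.24% of the lowest bin, 1.56% of the middle bin and 8.94% of the deepest bin were members. A deeper cell has more chances of a UMI in 2 genes, so how much of this is RNA content and how much is detection cannot be told apart from these counts. The comparison of cycling with other cells was therefore repeated with both classes above 10000 UMIs (84 members at a median of 16105.5 against 851 others at 11920) and within 5000 to 15000 UMIs (59 members at 10616 against 2359 at 8772).

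The sorted cell type was checked against its markers. Cd4 had a UMI in 103 of the 113. Ms4a1 and Cd8a had 0 UMIs in members, which allows a share of up to 2.65% of cells with a UMI (not of cells that express the gene), and Lyz2, Csf1r, Ncr1 and Col1a1 were at 0 as well. The list of B cell genes had a UMI for 12 of its 23 genes and summed to 288 to 680 CPM in the members of the 4 libraries, against 191 to 355 in other cells. Ighm gave 617 of those 754 UMIs. Cd79b, which pairs with the Cd79a of the filter in the B cell receptor, had a UMI in 8 of 113 members and 32 of 2774 other cells, at 8.40, 5.99 and 5.46 CPM in the members of the first 3 libraries and 0 in mutant 2 (which allows up to 9.70), against 1.61, 1.92, 1.30 and 1.35. The part of these genes in the results was not tested. The plasma cell list stood at 39.9 to 91.0 CPM against 56.9 to 66.9 and the myeloid list at 71.1 to 149 against 103 to 153. The list of CD8, γδ and innate lymphoid genes was at 359 to 476 against 319 to 425, mostly Trdc, the epithelial list at 0 to 32.8 against 6.17 to 23.7, and the stromal list at 42.0 to 65.5 against 58.9 to 94.1. Scrublet, a caller of doublets, marked 30 kept cells, of which 2 were members, both in mutant 2. Of the barcodes, 62 were found in more than 1 library and 4 of these were kept.

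The share of cycling cells was 2.10% in WT 1 (26 of 1236, exact 95% binomial interval 1.38 to 3.07), 4.07% in WT 2 (25 of 614, 2.65 to 5.95), 4.96% in mutant 1 (42 of 847, 3.60 to 6.64) and 10.5% in mutant 2 (20 of 190, 6.55 to 15.8). Intervals cover counting error only. Both mutant libraries lay above both WT libraries, at 7.74% ± 3.94 (SD, n = 2) against 3.09% ± 1.39, a difference of 4.65 percentage points. An exact two-sided permutation test gave p = 0.333, the smallest that 2 libraries against 2 allow, so the design could not pass 0.05. With 4 or more rule genes the libraries stood in the same order with smaller gaps. The shares of all kept cells were then 0.566%, 1.95%, 2.01% and 2.63%, and WT 2 and mutant 1 were close to each other. After each cell was thinned to 3000 UMIs the shares were 0.410%, 2.53%, 2.94% and 2.98%. WT 1 then stood apart from the other 3 libraries, and the genotype difference was 1.49 points. Among cells of 5000 to 15000 UMIs the shares were 0.942%, 2.69%, 3.56% and 7.52%. The genotype difference was then 3.72 points, with p = 0.333 by the same permutation test.

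**Figure D3:**
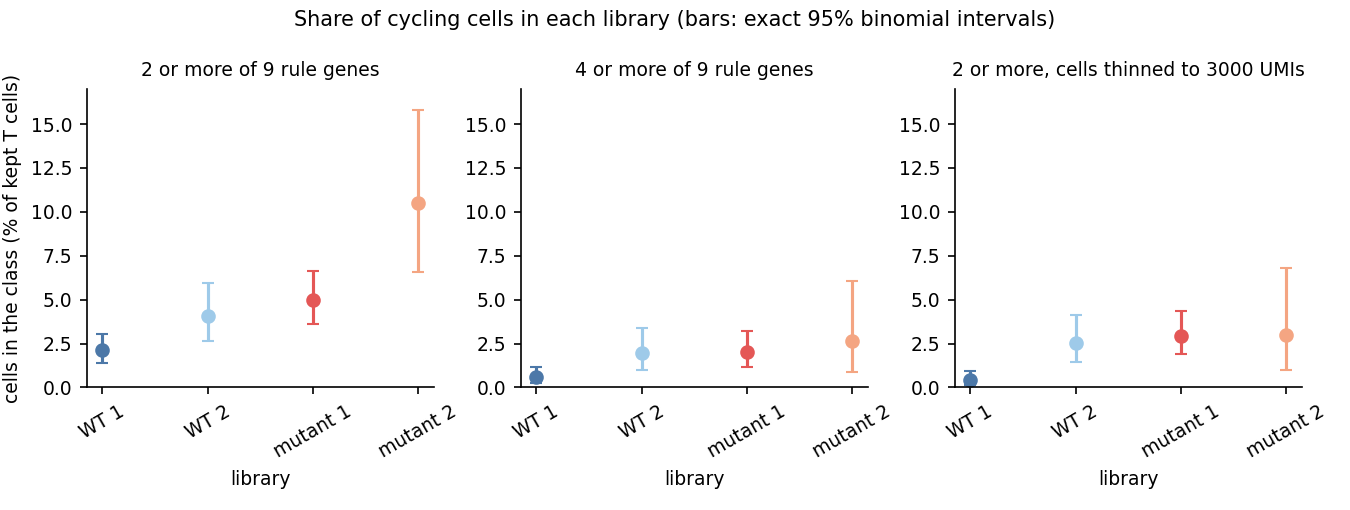
Cycling cells as a percentage of kept T cells (y axis) in each of the 4 libraries (x axis), with exact 95% binomial intervals as bars, for 2 or more rule genes, 4 or more rule genes, and the rule applied after thinning to 3000 UMIs. The step from 4.96% in mutant 1 to 10.5% in mutant 2 in the first panel is not there in the thinned panel, where the 2 stand at 2.94% and 2.98%. Among cells of 5000 to 15000 UMIs, not drawn, they stand at 3.56% and 7.52%.

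Counts were then summed over members and over other cells within each library, scaled by edgeR's trimmed mean of M values (TMM) and compared with library as a block. Of 7694 genes tested, 819 were higher in cycling cells (10.6%) and 546 lower (7.1%) by edgeR's quasi-likelihood test at a Benjamini-Hochberg adjusted p of 0.05. The genes of the cycle lists moved with the rule and are described without a test. Values below are CPM after that scaling, for WT 1, WT 2, mutant 1 and mutant 2 in turn, and differences are log2 fold changes, cycling minus other, with their standard error (SE). Levels by number of rule genes and sums over histone genes are CPM without that scaling.

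The spindle, kinetochore and cytokinesis list showed the widest gap, with a median difference of 3.09 over its 34 tested genes, against -0.02 over all genes. Of these, 31 were higher in all 4 libraries, a pattern seen in 1385 of all 7694 genes. Stmn1, which destabilises microtubules, stood at 389, 532, 681 and 271 CPM in cycling cells and at 74.9, 47.3, 23.2 and 28.6 in the others, with no overlap. The tubulin genes Tubb5 and Tuba1b, already abundant elsewhere, differed less (1.17 and 1.11). With exactly 2 rule genes the list's median was -0.09, and with both classes above 10000 UMIs it was 2.39.

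The replication list had a median difference of 1.72 (35 of 35 tested genes positive, 33 in all 4 libraries). Pcna, the sliding clamp, was at 194, 296, 278 and 242 CPM against 95.2, 88.6, 71.2 and 71.2, and Mcm6 at 154, 199, 184 and 245 against 46.9, 38.0, 41.0 and 48.6. The list's median was 1.57 above 10000 UMIs and 0.74 within the window of 5000 to 15000 UMIs, where Pcna differed by 0.24. The other cycle lists had medians of 1.15 for histones and chromatin assembly, 1.00 for nucleotide supply, 0.95 for cyclins and kinases, 0.89 for repair and 0.69 for condensin and cohesin. Hmgb2 stood at 1054, 1589, 2065 and 853 CPM against 265, 298, 310 and 280, and Cks2, a small partner of cyclin-dependent kinases, at 158, 205, 259 and 154 against 35.3, 31.3, 29.5 and 16.6.

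Not every cell-cycle gene was higher. Ccnd3, the D-type cyclin that carries lymphocytes through G1, was at 133, 147, 146 and 126 CPM in cycling cells and at 200, 225, 217 and 228 in the others, lower in every library (difference -0.64, SE 0.11). Ccnd2 was at 823, 544, 489 and 683 against 572, 757, 946 and 845, with groups that overlap. The inhibitor Cdkn1b (p27) was at 124, 110, 114 and 104 against 134, 138, 138 and 158. Smc4, a condensin subunit, was at 373, 269, 450 and 280 against 473, 393, 310 and 422, higher in mutant 1 only. Rbl2, Cdkn2d and Atr had differences with no steady sign over the alternative settings.

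Outside the lists, the largest rise was in Lockd, a long non-coding RNA beside Cdkn1b (GRCm38, chromosome 6, 134929092 to 134951718). It stood at 76.9, 116, 109 and 37.8 CPM in cycling cells and at 3.02 to 4.48 in the others, a difference of 4.44 (SE 0.27). Lockd had a UMI in 29 of the 41 members with 4 or more rule genes and in 4 of the 72 with 2 or 3, so it was a mark of the strongest members. Knstrn, a spindle protein, showed the same split with 27 of 41 and 5 of 72 (difference 3.48, SE 0.32). Diaph3, a formin that builds actin filaments, and Pmf1, of the kinetochore, rose by 2.24 and 2.15. Lockd, Knstrn, Diaph3 and Pmf1 were too low in other cells to pass edgeR's low-count filter on those cells alone. They entered the test through the members, so these rises are a description.

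Selenoh, a nuclear selenoprotein (chromosome 2, 84669215 to 84670708), reached further down the scale. It was at 249, 281, 263 and 142 CPM against 37.2, 44.4, 33.3 and 27.3 (difference 2.72, SE 0.13, edgeR adjusted p = 7.38e-12), and had a UMI in 40 of the 41 strong members, 41 of the 72 with 2 or 3 rule genes and 24.2% of cells with none. Cdca7, a nuclear partner of the helicase Hells, was at 104, 76.4, 73.1 and 88.1 against 17.5, 16.2, 12.7 and 8.66. Crip1, a small LIM protein, was at 167, 196, 169 and 176 against 66.1, 72.0, 70.6 and 58.6. The other rises in this group were Ccdc34 1.85, Prdx4 1.83, Tmem121 1.66, Siva1 1.49 and Ppil1 1.40. Cdca7 (in mutant 2) and Tmem121 were too low in other cells for those cells alone to meet the cutoff of edgeR's low-count filter. Both entered the test through the members, so their rises are a description. Siva1 and Ppil1 differed by only 0.30 and 0.47 within 5000 to 15000 UMIs, where neither passed the test (edgeR adjusted p = 0.838 and 0.693).

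Genes of growth were higher too, by less. In the list of Myc and ribosome biogenesis 21 of 31 tested genes rose and 0 fell, with a median of 0.62. Srm, of polyamine synthesis, was at 90.5, 67.2, 26.3 and 25.2 CPM against 25.0, 24.1, 18.4 and 8.66, and C1qbp at 228, 165, 178 and 123 against 105, 86.2, 85.4 and 60.6. Srm was too low in the other cells of mutant 2 for other cells alone to meet the low-count cutoff. It entered the test through the members, so its rise is a description. In glycolysis 8 of 16 rose, led by Pgk1 (518, 629, 649 and 494 against 222, 228, 371 and 244; difference 1.12), and among nuclear respiratory chain subunits 25 of 34 rose, with a median of 0.46. Phgdh, the first enzyme of serine synthesis, rose by 1.36 and Tfrc, the transferrin receptor, by 1.00, but in all 6 of 20 genes of the mTORC1 and amino-acid list rose and 1 fell. In sterol and fatty-acid synthesis 4 of 19 rose and 0 fell. Within 5000 to 15000 UMIs, with 59 members and a smaller gap in depth between the classes, 86 of 6732 genes rose in all (1.28%) and 40 fell (0.594%) by edgeR. There the Myc list had 1 gene past the test of 30 and a median of 0.10, and the respiratory list 2 of 34 and 0.24. Glycolysis had 4 rises of 16, the mTORC1 and amino-acid list 1 of 16 and the sterol list 0 of 15. Above 10000 UMIs 426 of 6355 genes rose in all (6.7%) and 198 fell (3.12%), among them 16 of 31 and 16 of 34 rises in the Myc and respiratory lists. Glycolysis then had 8 rises of 16, the mTORC1 and amino-acid list 1 of 16 and the sterol list 1 of 15.

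**Figure D4:**
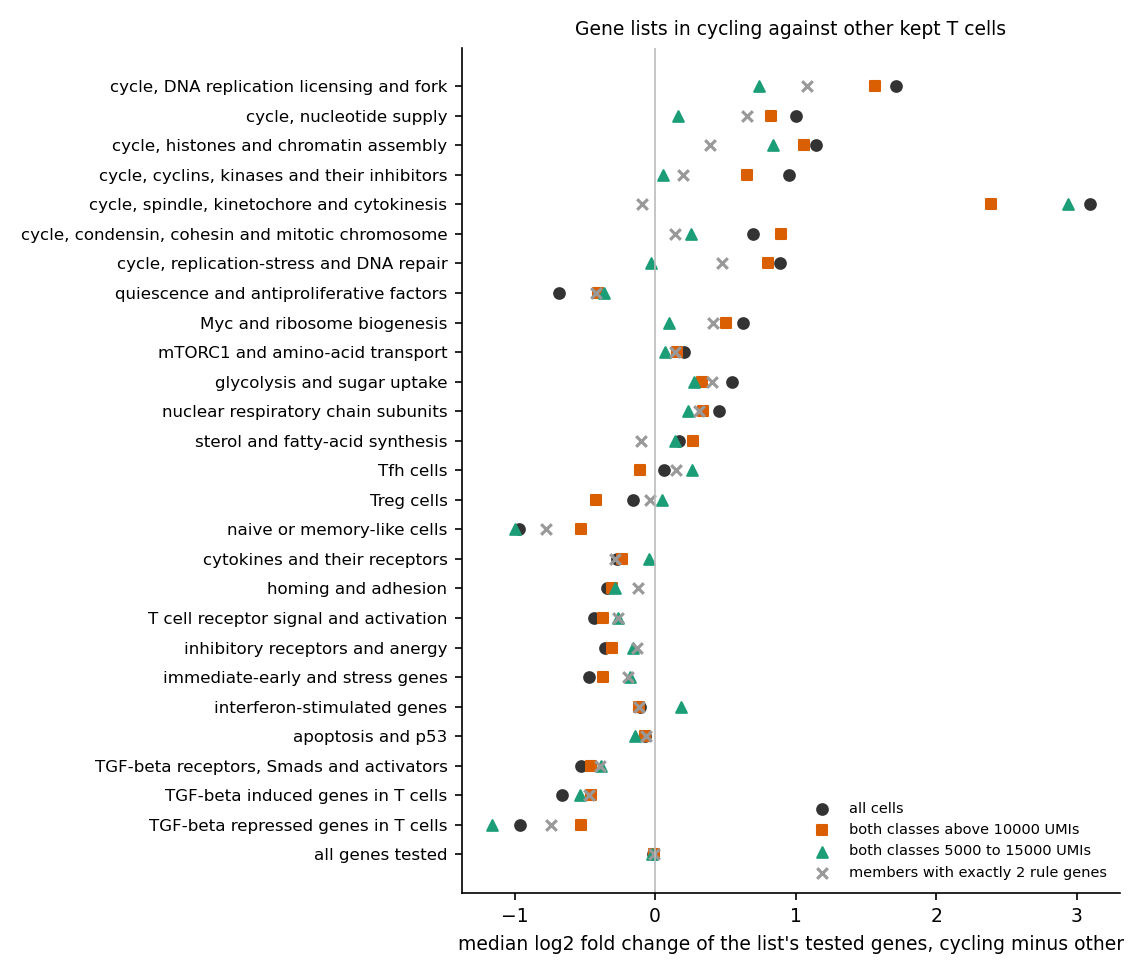
Median log2 fold change of the tested genes of each list, cycling minus other kept cells (x axis), for the lists named on the y axis and for all genes tested, with all cells (black circles), both classes above 10000 UMIs (orange squares), both within 5000 to 15000 UMIs (green triangles) and members with exactly 2 rule genes (grey crosses). The spindle list stands at 3.09 with all cells and at -0.09 with exactly 2 rule genes, while the quiescence list is below 0 in all 4 sets.

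Factors that hold T cells at rest were lower. Of 23 tested quiescence and antiproliferative genes 17 fell and 0 rose, with a median of -0.68, and 0 of 23 were positive. Above 10000 UMIs 8 of 21 fell, and within 5000 to 15000 UMIs 4 of 22. Satb1, a chromatin organiser of T cells, was at 90.5, 42.8, 48.8 and 31.5 CPM in cycling cells and at 176, 159, 110 and 138 in the others (difference -1.39, SE 0.17, edgeR adjusted p = 7.22e-06), and remained past the test at both depth settings. Klf2, which drives S1pr1, was at 58.8, 39.7, 18.8 and 31.5 against 154, 100, 36.6 and 96.5 (-1.33, SE 0.17). Klf2 passed the test within 5000 to 15000 UMIs, but above 10000 UMIs it differed by -0.53 (edgeR adjusted p = 0.179). S1pr1, which guides exit from lymphoid tissue, differed by -0.55 above 10000 UMIs, against -1.50 with all cells. Pik3ip1, an inhibitor of PI3 kinase, fell by 1.23 and Il7r by 1.31. Il7r was below the cutoff of edgeR's low-count filter in the members and entered the test through the other cells. Its fall is a description. In the naive or memory-like list, which shares Klf2, Satb1, S1pr1 and Il7r with these, 7 of 10 fell and 0 rose, with 2 of 9 falling above 10000 UMIs and 4 of 9 within 5000 to 15000.

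Of the genes set off by the T cell receptor 10 of 25 fell and 0 rose, with a median of -0.44. Nr4a1 (Nur77) was at 27.1, 15.3, 15.0 and 6.29 CPM against 89.6, 62.1, 44.3 and 38.6, with no overlap (-1.80, SE 0.23). Egr3 was at 38.4, 15.3, 61.9 and 3.15 against 81.1, 89.3, 110 and 69.2 (-1.42). Nr4a3 fell by 1.84 and Tnfrsf9 (4-1BB) by 0.55. In the members Nr4a3, and in those of mutant 2 Nr4a1 and Egr3, lay below the cutoff of edgeR's low-count filter. Nr4a1, Egr3 and Nr4a3 entered the test through the other cells, so their falls are a description. Of the immediate-early and stress genes 11 of 20 fell and 2 rose. Jun was at 122, 48.9, 65.6 and 173 against 324, 200, 146 and 188 and Hspa1a at 81.4, 27.5, 7.50 and 81.8 against 203, 122, 37.5 and 89.2, both with groups that overlap. The chaperone genes Hspa8 and Hsp90aa1 rose by 0.43 and 0.47, and within 5000 to 15000 UMIs Hspa8 differed by -0.04. In that window 1 of 24 genes of the receptor list and 0 of 20 of the immediate-early list passed, both beside 0.594% lower over all genes.

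The Tfh list did not move as one: 5 of 20 rose and 3 fell, with a median of 0.07. Above 10000 UMIs 1 of 20 rose and 3 fell (median -0.11), beside 6.7% and 3.12% over all genes. Within 5000 to 15000 UMIs 3 of 20 rose and 1 fell (median 0.26), beside 1.28% and 0.594%. Cebpa, a transcription factor gene on that list, had the largest rise in it, with 163, 171, 161 and 192 CPM against 40.7, 62.7, 107 and 75.2, and no overlap (1.30, SE 0.17, edgeR adjusted p = 1.57e-05; 0.73 above 10000 UMIs). Il21, the helper cytokine of germinal-centre reactions, was at 176, 309, 253 and 223 against 128, 175, 233 and 154 (0.47, SE 0.12, adjusted p = 0.0081 by edgeR), and Pdcd1 (PD-1) at 215, 382, 225 and 321 against 164, 216, 246 and 188. Above 10000 UMIs Il21 and Pdcd1 differed by 0.31 and 0.20, neither past the test. Ascl2, which promotes Cxcr5 and follicular homing, rose by 0.69 with all cells and differed by 0.05 above 10000 UMIs. Pou2af1 rose by 0.84. Slamf6, an adhesion receptor for contact with B cells, was at 258, 235, 296 and 277 against 513, 547, 496 and 558 (-0.97, SE 0.10), and stayed past the test at both depth settings. Slamf1 fell by 1.55, Tnfsf8 by 0.47 and Il6st by 0.47.

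Several receptors and regulators of activated T cells were lower in all 4 libraries. Izumo1r, the folate receptor 4 gene of anergic and regulatory T cells (chromosome 9, 14885814 to 14903951), was at 678, 412, 593 and 689 CPM against 1240, 1107, 1077 and 1117 (-0.95, SE 0.10, edgeR adjusted p = 6.14e-07). It went from 1164 CPM in cells with 0 rule genes to 1040 with 1, 670 with 2 or 3 and 449 with 4 or more. Lag3, an inhibitory receptor, was at 296, 223, 384 and 346 against 596, 567, 614 and 547 (-0.90, SE 0.11), and went from 583 through 574 and 375 to 217 on the same scale. Dgka, which damps receptor signals, fell by 0.86. In the list of inhibitory receptors and anergy 6 of 14 fell, and Pdcd1 was the 1 that rose.

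Id2, an inhibitor of helix-loop-helix factors that favours effector over Tfh fates, was at 163, 128, 91.9 and 91.2 CPM against 365, 335, 236 and 274 (-1.34, SE 0.11, edgeR adjusted p = 5.09e-08), with no overlap. It went from 320 CPM at 0 rule genes to 281, 138 and 80.6. Id2, Izumo1r and Lag3 passed at both depth settings. Ahr fell by 1.56 and Gata3 by 0.79, and neither passed at either depth setting. Ccr9, the gut-homing receptor, was at 9.05, 12.2 and 13.1 CPM in the first 3 libraries and had no UMI in the members of mutant 2, which allows up to 9.70 CPM before scaling, against 62.3, 37.2, 23.2 and 18.6 in the others. Ahr and Ccr9 were too low in the members for those members alone to meet the cutoff of edgeR's low-count filter. Both entered the test through the other cells, so their falls are a description. Gpr183, which guides cells to the follicle's edge, was at 213, 91.7, 78.8 and 53.5 against 250, 201, 186 and 186 (-0.94). Itgb1 rose by 0.56, the 1 rise among 15 homing genes, of which 5 fell. The remaining large falls were Neurl3 -1.88, Calcoco1 -1.63, Itga6 -1.62, Chn2 -1.45, Phf1 -1.43 and Lpar6 -1.39. Of the 12 largest falls, Neurl3 and Satb1 passed within 5000 to 15000 UMIs and the other 10 did not.

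Some genes of the TGF-β pathway were lower in cycling cells. Of 13 tested receptors, Smads and activators 5 fell and 0 rose, while 2 of 13 fell above 10000 UMIs and 1 of 13 within 5000 to 15000. Tgfb1 itself was at 118, 101, 93.8 and 72.4 CPM against 178, 164, 144 and 152 (-0.71, SE 0.13), past the test at both depth settings, and Ski, a repressor of Smad-driven transcription, fell by 0.81. Smad7, the feedback inhibitor, was at 22.6, 18.3, 13.1 and 9.44 against 72.0, 49.1, 19.3 and 30.6 (-1.33, SE 0.26), but above 10000 UMIs it differed by -0.81 (edgeR adjusted p = 0.0908). In the members of mutant 2 Smad7 was just below the cutoff of edgeR's low-count filter. The gene entered the test with all cells through the other cells, so that fall is a description. Of 13 genes induced by TGF-β in T cells 7 fell and 1, Bhlhe40, rose (0.70). Of 8 genes repressed by TGF-β 4 fell (Klf2, S1pr1, Id2 and Gata3) and 0 rose, so falls were in both lists. Few of these passed at the depth settings: above 10000 UMIs 1 of 13 induced and 1 of 7 repressed genes fell, and within 5000 to 15000 UMIs 0 of 13 and 2 of 6.

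How far these calls carry was counted. Above 10000 UMIs in both classes, 421 of the 819 rises and 189 of the 546 falls passed again, and of the genes tested there 767 of 767 and 515 of 516 had the same sign. Within 5000 to 15000 UMIs, with fewer members, 82 and 33 passed again, with the same sign in 647 of 714 and 524 of 536. With members of exactly 2 rule genes 74 and 42 passed again, and with members of 4 or more 507 and 289.

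Mutant and WT cycling cells were compared by summing the members of each library, 26, 25, 42 and 20 cells. Of 5401 genes tested, 13 were higher in mutant cycling cells (0.241%) and 1 lower (0.0185%) by edgeR. At an unadjusted p of 0.05, 431 genes passed. Histone genes made up much of the higher set: Hist1h2ap, Hist1h2ae, Hist1h1b, Hist1h3c, Hist2h2ac and Hist1h4d. Most of their transcripts are made in S phase, and because these genes are near copies of each other, their separate counts are uncertain. Hist1h1b, Hist1h3c and Hist2h2ac were too low in the WT members for those members alone to meet the cutoff of edgeR's low-count filter. They entered the test through the mutant members, so their rises are a description.

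Summed, the 6 histone genes gave 149 and 201 CPM in WT and 2001 and 815 in mutant members, while in other cells they gave 88.9, 86.6, 106 and 172. A few cells carried this. In mutant 1 the 3 top cells held 880 of 1099 UMIs (80.1%), and in mutant 2 they held 191 of 252 (75.8%). Each WT library had 2 cells with 10 or more such UMIs, mutant 1 had 5 and mutant 2 had 4. Among members with 2 or 3 rule genes, the sums were 97.7, 81.1, 147 and 196 CPM. Hist1h2ap, the largest, differed by 3.51 (SE 0.43, edgeR adjusted p = 0.00047), with 550 UMIs in 21 cells of mutant 1 and 98 in 8 cells of mutant 2.

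**Figure D5:**
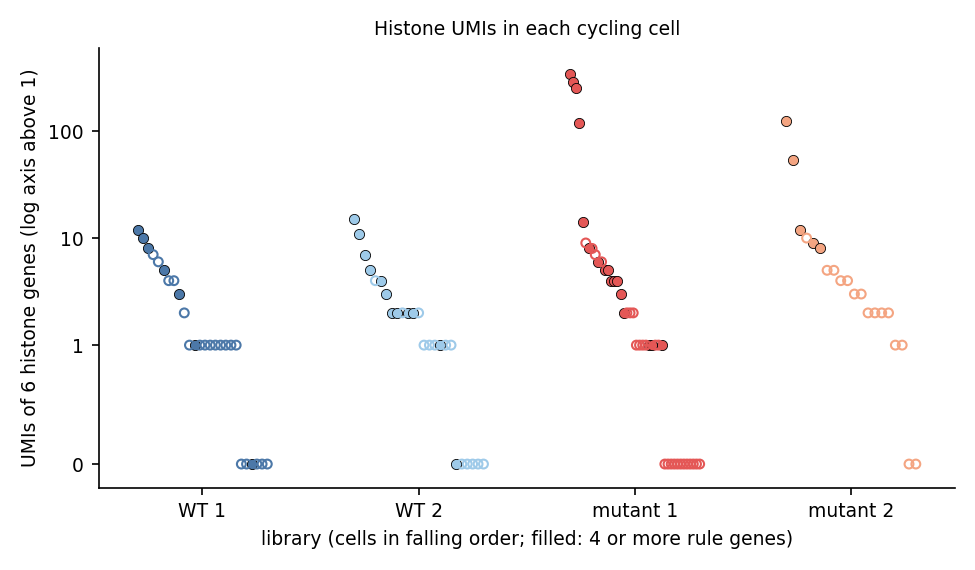
UMIs of the 6 histone genes in each cycling cell (y axis, logarithmic above 1 and linear below), cells in falling order within each library (x axis); filled points are cells with 4 or more rule genes. The top cells of mutant 1 and mutant 2 reach 343 and 125 UMIs, against 12 and 15 in WT 1 and WT 2, and most cells of every library hold fewer than 10.

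Lgals3, Gstm1 and Slamf7 rested on few cells too. Lgals3 (galectin-3) had 47 UMIs in 1 cell of mutant 1, 23 in 1 cell of mutant 2 and none in WT. With all its UMIs in 2 cells, no fold over the group is given. Gstm1 had its 45 UMIs in 6 cells and Slamf7 its 88 in 10. Nusap1, of the spindle, and Ncapg2, of condensin, were seen in 20 and 22 cells and rose by 2.37 and 1.91. Dsp rose by 1.85. All genes of this paragraph were too low in the WT members for those members alone to meet the low-count cutoff. They entered the test through the mutant members, so these rises are a description.

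Id1, a target of the related BMP receptors, was at 6.92, 37.1, 96.5 and 117 CPM (2.12, SE 0.41), in 19 cells. It was too low in WT 1 for the WT members alone to meet the low-count cutoff. The gene entered the test through the mutant members, so this rise is a description. In mutant 1 the top cell held 22 of 50 Id1 UMIs, and in mutant 2 it held 25 of 35. In the other kept cells Id1 was at 10.8, 12.4, 42.3 and 27.4 (1.68, SE 0.20). Vim, the intermediate filament vimentin, was the 1 gene lower in mutant cycling cells, at 210, 83.5, 25.1 and 13.3 CPM (-2.61, SE 0.41). It was too low in the mutant members for those members alone to meet the low-count cutoff. Vim entered the test through the WT members, so this fall is a description. It had 91, 27, 13 and 4 UMIs in 11, 12, 7 and 2 cells, and in the other kept cells it stood at 41.2, 40.9, 19.5 and 11.1. Leaving out mutant 1, 6 of the 13 rises and Vim passed again, and by DESeq2 2 of the 13 and Vim did.

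Genes that respond to TGF-β were looked at by name. Pmepa1, a feedback inhibitor, was at 83.0, 49.5, 19.3 and 19.9965 CPM in cycling cells, and both mutant libraries lay below both WT libraries (-1.56, SE 0.39, edgeR adjusted p = 0.185, not passed). In the other kept cells it was at 100, 80.6, 42.6 and 38.5 and fell by 1.14 (adjusted p = 0.00225). Ramp1, a co-receptor for the neuropeptide CGRP, was at 39.2, 27.8, 7.72 and 3.33 CPM in cycling cells (-1.82, adjusted p = 0.319) and at 59.6, 46.7, 15.4 and 20.3 in the others, where it fell by 1.66. Fos was at 69.2, 207, 30.9 and 70.0 (-1.42) against 278, 183, 89.4 and 51.6. Skil differed by -0.16 in cycling cells and fell by 0.74 in others. Smad7 (10, 6, 7 and 3 UMIs), Foxp3 (13, 2, 3 and 0), Ccr7 (48, 5, 4 and 4) and Gpr83 (2, 0, 2 and 0) had too few UMIs in cycling cells to be tested.

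The Tfh genes did not pass between genotypes in cycling cells: Ascl2 was at 39.2, 95.8, 137 and 76.7 CPM (0.73, edgeR adjusted p = 0.64), Il4 at 55.3, 58.7, 61.7 and 110, Il21 at 180, 312, 260 and 237, Cxcr5 at 87.6, 121, 98.4 and 147 and Bcl6 at 62.3, 173, 77.2 and 120. Their groups overlapped, apart from Il4, whose 2 mutant values lay above both WT values. Klf2 differed by -0.90 and Nkg7 by 0.76, neither past the test. In other kept cells 64 genes were higher (0.611%) and 45 lower (0.429%) of 10478 by edgeR, and Ascl2 rose there by 1.38. That class holds many more cells, so its calls do not show that cycling cells lack a difference.

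As lists, 0 of 30 Myc and ribosome genes were positive in mutant cycling cells, with a median of -0.41 against 0.00 over all genes and 0 past the test. The same list had 3 of 33 positive and a median of -0.24 in the other cells. Histones and chromatin had 22 of 26 positive, with a median of 0.40 and 5 called. The spindle list had 28 of 33 positive, with a median of 0.23 and 1 called, and the replication list 24 of 32, at 0.16 and 0 called. Within 5000 to 15000 UMIs the median was -0.22 over the 11 spindle genes still tested and 0.02 over 16 Myc and ribosome genes, so neither kept its sign. Members with 4 or more rule genes were 7 of 26 and 12 of 25 in the WT libraries and 17 of 42 and 5 of 20 in the mutant ones.

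The difference between the classes was tested directly. The mutant minus WT difference was more positive in cycling cells for 6 of 8376 genes (0.0716%) and more negative for 2 (0.0239%) by edgeR. The 2 were BC018473, an RNA at 352, 733, 543 and 373 CPM in cycling cells and 107, 199, 573 and 231 in others (difference of differences -1.56, SE 0.22, edgeR adjusted p = 0.00186), and Anxa2 (annexin A2), at 60.5, 118, 26.1 and 24.9 against 23.6, 29.3, 30.3 and 40.3 (-2.07, SE 0.40). BC018473 was at its lowest in WT 1 in both classes. At an unadjusted p of 0.05, 473 genes passed.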

How the data were processed

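The authors deposited 4 matrices of UMI counts per gene and barcode (10x Genomics 3′ libraries), and per the submitters' processing notes Cell Ranger 6.0.0, Seurat 4 and the build mm10 were used, with the role of each not given in the sources used here. The deposited counts cover 32285 genes. WT 1 held 1757 barcodes, WT 2 1111, mutant 1 1631 and the rest were in mutant 2. Antibody-tag counts were kept out of all sums, and 2 tag libraries listed without matrices were not analysed here.

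Members and other kept cells were found with the stated rule, and their counts summed per library (cycling cells 309333 to 549332 UMIs, other cells 1477519 to 11181894). edgeR 4.0.16 was used with filterByExpr, TMM scaling, a prior count of 2, glmQLFit and glmQLFTest, and Benjamini-Hochberg adjustment over all genes tested. Cycling against other cells and the interaction had library as a block, and the genotype comparisons had none. The code was tested on simulated data. Alternatives were DESeq2 1.42.0, no TMM scaling, no filter on low counts, each library left out, other definitions of the members, no library block, comparison with cells of 0 rule genes, and Scrublet doublets left out. Both classes above 10000 UMIs and members with exactly 2 rule genes were added after seeing the data. Thinning drew UMIs without replacement, and 89 cells under 3000 UMIs were left out of it. The design could not give a genotype p under 0.333 for shares.

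Members, gene lists and tests were chosen with earlier results of these data known. Genes named from the comparison of cycling with other cells were the 12 largest rises and 12 largest falls outside the cycle lists, past the threshold, of 1 sign in all 4 libraries, at 20 or more CPM on average and not predicted, ribosomal, mitochondrial or receptor segment genes. From each cycle list the 4 most abundant and all lower genes were taken, from other lists up to 4 in each direction, and from genotype and interaction up to 10, with 15 genes fixed by name. Whether replicate numbers pair the libraries was checked: deviations from the group means of same-numbered libraries had a Pearson r of -0.04 over 5401 genes in cycling cells and 0.01 over 10478 in others, so the numbers were not taken as pairs. Promoters matched by symbol for 9 of 9 rule genes, 44 of 52 spindle genes, 32 of 41 replication genes, 17 of 18 nucleotide-supply genes and 15 of 30 histone and chromatin genes. A few results, among them 1 of the 8 interaction calls, are not reported here.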

Additional observations from a re-analysis of the deposited data

Results flagged for a closer look

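The mutant minus WT difference differed between cycling and other kept cells for 8 genes by edgeR's interaction test, and 7 of them are given here. Lgals3 had a difference of differences of 8.12 on the log2 scale, with 70 UMIs in 2 mutant cells and none in WT cycling cells, so the fitted value depends on the prior count and is no bound. Xcl1, a chemokine, stood at 6.40, with 86 of its 88 UMIs in 1 cell of mutant 1, and it turned to -0.36 without that library. Slamf7 was at 3.46, from 47 UMIs in mutant 1, 34 in mutant 2, 7 in WT 1 and none in WT 2. Hist1h2ap was at 3.13 and Hist1h2ae at 2.88, with the concentration in few cells described for the histone genes. BC018473 was at -1.56 and Anxa2 at -2.07, and these 2 had UMIs in 53 and 35 cells, with 7.65% and 11.4% of UMIs in the top cell. In DESeq2's fit 1 of the 6 and 1 of the 2 passed again, and without mutant 1 it was 2 of 6 and 2 of 2.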

How the results depend on the processing

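Over 16 alternative settings, 172 values of single genes gave 2300 further values, of which 1893 kept direction and call, 368 kept direction and lost the call, 10 kept direction and gained it, and 29 changed sign. The cause was not tested, apart from fewer cells or libraries by construction. In cycling against other cells, the 819 rises became 544 after thinning to 3000 UMIs, 86 within 5000 to 15000 UMIs, 426 above 10000 UMIs, 75 with exactly 2 rule genes and 577 to 745 without 1 library. The 546 falls became 257 by DESeq2, 354, 40, 198 and 42 in those 4 settings, 285 without the library block and 311 to 446 without 1 library (326 without WT 1, 311 without WT 2). For genotype in cycling cells, the 13 rises became 2 by DESeq2, 29 without the filter, 2 within 5000 to 15000 UMIs and 16 to 40 without 1 library, and the 1 fall became 10 without the filter and 4 to 19 without 1 library. In other cells, the 64 rises and 45 falls became 23 and 23 by DESeq2, 208 and 151 without the filter, and 24 to 288 and 19 to 215 without 1 library. For the interaction, the 6 and 2 became 1 and 1 by DESeq2, 17 and 7 without the filter, 3 positive within 5000 to 15000 UMIs, 1 negative without TMM, and 9 to 20 and 7 to 12 without 1 library. Where a library was left out, the lone one of its genotype was assumed to vary like the rest. With replicate number as a replicate block, the 13 rises became 8, and the 64 and 45 calls in other cells 193 and 133. The share difference ranged from 1.87 to 7.44 points without 1 library. Within 5000 to 15000 UMIs, 40.7% of members had G2/M-side genes alone and 57.6% both sides. Without 1 library, signs changed within the ranges of Rbl2 (-0.34 to 0.072), Cdkn2d (-0.37 to 0.21) and Atr (-0.89 to 0.014). They also changed for Rbl2 above 10000 UMIs (0.0032) and with exactly 2 rule genes (0.32), for Cdkn2d with 4 or more rule genes (0.39), thinned (0.41) and above 10000 UMIs (0.24), for Arl6ip1 (-0.089), Anp32e (-0.13) and Cyp51 (-0.35) with exactly 2 rule genes, for Smc4 with 4 or more (0.0045) and thinned (0.056), and for Usp1 (-0.056), Il6st (0.079), Itgb1 (-0.046) and Hspa8 (-0.045) within 5000 to 15000 UMIs. Between genotypes, the ranges without 1 library crossed 0 for Skil (-0.78 to 0.16), Cxcr5 (-0.069 to 0.49), Il21 (-0.31 to 0.45), Bcl6 (-0.82 to 0.57), Nkg7 (-0.28 to 3.37) and, in the interaction, Xcl1 (-0.36 to 8.74). Genotype with 4 or more rule genes or after thinning was not run because libraries fell under 10 cells.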

Other observations

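Within the WT libraries the antibody tags split the kept cells, and the labels do not say what tags 301, 302 and 303 stand for. In WT 1 the cycling share was 7 of 411 cells with tag 301 (1.70%), 10 of 406 with tag 302 (2.46%) and 8 of 299 with tag 303 (2.68%). In WT 2 it was 10 of 126 (7.94%, exact 95% binomial interval 3.87 to 14.1), 1 of 65 (1.54%, 0.0389 to 8.28) and 11 of 338 (3.25%, 1.64 to 5.75). Of the 10 cycling cells with tag 301 in WT 2, 8 had 4 or more rule genes, against 1 of the 11 with tag 303. These counts are a description of 1 library and were not tested.

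Of 16 tested interferon-stimulated genes 1 rose in cycling cells and 0 fell by edgeR, where over all genes 10.6% rose and 7.1% fell. The 1 was Ifi27l2a, at 2406, 996, 1885 and 809 CPM in the cycling cells of WT 1, WT 2, mutant 1 and mutant 2, against 1272, 475, 1222 and 497 in the others (0.83, SE 0.08). It was higher in cycling cells in 4 of 4 libraries, and its level differed more between libraries of 1 genotype than between the classes. Among apoptosis and p53 genes 1 of 17 rose and 3 fell: Bak1 by 0.59, and Sesn1, Ccng1 and Mcl1 at -1.18, -0.65 and -0.31. Of 8 tested regulatory T cell genes, Izumo1r and Tnfrsf9 fell and 0 rose, and Foxp3 had 18 UMIs in 8 of the 113 cycling cells.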
